A study of Mus musculus with 6 samples.

Results

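The 10 genes described here, B2m, Tap1, Tap2, Tapbp, Psmb8, Psmb9, Psmb10, Nlrc5, Erap1 and Psme1, serve MHC class I antigen processing, among 18193 genes named on the array. They were taken as all probe sets whose platform annotation gives exactly 1 gene symbol equal to one of these names, which gave 17 probe sets of the 45037 tested. A probe set is the group of short probes that reports 1 transcript on the array. Of the genes, 5 had 1 probe set and 5 had several. The cells were LSK cells, the lineage-negative, Sca-1-positive and Kit-positive fraction that holds the haematopoietic stem cells, sorted from bone marrow of mice 6 months old. The 3 Tet1 KO samples came from mice knocked out for Tet1, an enzyme that oxidises 5-methylcytosine in DNA, and the 3 WT samples were wild type. The strain is labelled CD57BL/6 for both groups, and no treatment is named for either. The design of the Tet1 allele, and whether a sample was 1 mouse or a pool, are not stated in the labels. Where samples are not separate mice, the p-values below reflect only how far these 3 and 3 samples vary. Each sample was hybridised to 1 Affymetrix array, and all values are the authors' log2 probe set intensities, on which a difference of 1 is a doubling.

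MHC class I molecules show peptides from inside a cell at its surface. The immunoproteasome, in which Psmb8, Psmb9 and Psmb10 take the place of the catalytic subunits Psmb5, Psmb6 and Psmb7, cuts proteins into peptides that fit class I molecules, and the PA28 activator, part of which Psme1 encodes, opens the proteasome core. The transporter made of Tap1 and Tap2 carries the peptides into the endoplasmic reticulum, Erap1 trims them there, and Tapbp (tapasin) holds the transporter beside class I heavy chains bound to B2m, the light chain. Nlrc5 is a transactivator of class I genes, and interferon raises most of these genes in many cell types.

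Of the members, 5 lie on chromosome 17, where Psmb9, Tap1, Psmb8 and Tap2 follow each other in the RefSeq annotation of GRCm38.p6 and Tapbp lies apart from them. The other members lie on chromosomes 2 (B2m), 8 (Psmb10 and Nlrc5), 13 (Erap1) and 14 (Psme1). RefSeq promoter windows of GRCm38.p6, from 250 bases before to 50 bases after a transcription start, were matched by symbol for 8 of the 10. Motifs were searched on both strands: the interferon response core GAAANNGAAA, the gamma-activated core TTCNNNGAA, which reads the same on both strands, the CCAAT box, the kappa B core GGGANNNNCC and the cyclic AMP core TGACG. The interferon response core was present in 3 of the 8 windows, those of B2m, Erap1 and Psme1, and in 3.44% of all 32851 windows. CCAAT was in 4 of the 8 (37.4% of all), TGACG in 3 (20.8%), the kappa B core in 1 (20.7%) and the gamma-activated core in 1 (8.30%). A match describes letters in the window and is no evidence of binding. Below are the 3 windows with the interferon response core, the Tap1 window, of which 275 bases are shared with that of Psmb9 on the opposite strand, and the Psmb8 window, with every motif match in capitals. In the B2m window the capitals after GAAACTGAAA are the kappa B core, matched on both strands with an offset of 1 base.
B2m (chr2:122147437-122147736, plus strand): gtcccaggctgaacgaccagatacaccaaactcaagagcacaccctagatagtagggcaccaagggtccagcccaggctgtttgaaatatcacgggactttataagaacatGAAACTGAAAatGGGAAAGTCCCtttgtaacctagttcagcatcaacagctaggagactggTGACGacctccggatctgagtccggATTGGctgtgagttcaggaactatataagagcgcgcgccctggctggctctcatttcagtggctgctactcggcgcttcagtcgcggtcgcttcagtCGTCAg
Erap1 (chr13:74639603-74639902, plus strand): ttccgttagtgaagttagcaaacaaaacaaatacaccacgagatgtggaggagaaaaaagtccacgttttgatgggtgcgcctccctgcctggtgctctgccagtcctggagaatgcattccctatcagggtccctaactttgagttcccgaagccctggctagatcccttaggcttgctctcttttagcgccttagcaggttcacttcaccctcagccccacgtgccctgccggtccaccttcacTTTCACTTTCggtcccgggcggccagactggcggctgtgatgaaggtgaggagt
Psme1 (chr14:55578244-55578543, plus strand): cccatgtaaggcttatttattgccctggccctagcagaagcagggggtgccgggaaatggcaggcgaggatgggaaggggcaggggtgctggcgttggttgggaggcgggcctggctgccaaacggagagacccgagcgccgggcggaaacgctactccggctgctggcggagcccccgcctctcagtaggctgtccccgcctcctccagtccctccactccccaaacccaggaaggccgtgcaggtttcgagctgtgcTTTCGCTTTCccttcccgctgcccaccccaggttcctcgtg
Tap1 (chr17:34187306-34187605, plus strand): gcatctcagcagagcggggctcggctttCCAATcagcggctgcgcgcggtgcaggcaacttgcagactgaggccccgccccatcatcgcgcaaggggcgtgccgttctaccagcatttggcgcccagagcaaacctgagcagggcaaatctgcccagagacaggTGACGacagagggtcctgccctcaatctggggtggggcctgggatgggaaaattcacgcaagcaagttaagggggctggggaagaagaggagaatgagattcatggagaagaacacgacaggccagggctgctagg
Psmb8 (chr17:34197945-34198244, plus strand): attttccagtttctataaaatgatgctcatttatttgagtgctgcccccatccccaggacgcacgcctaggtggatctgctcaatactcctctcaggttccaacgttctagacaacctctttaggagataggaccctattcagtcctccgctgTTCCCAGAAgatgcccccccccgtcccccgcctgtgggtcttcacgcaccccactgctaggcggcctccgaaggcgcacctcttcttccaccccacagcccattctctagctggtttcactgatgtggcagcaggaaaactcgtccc
The starts of Tap1 and Psmb9 lie 226 bases apart, so the pair shares 1 CCAAT box and 1 TGACG. The Psmb10 window held none of these motifs.

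Median intensities of the 6 arrays spanned 0.0694, and their number limits the precision. Probe sets for bacterial RNA, absent from mouse cells, set a level of 4.39 below which a signal is called dim here. On Tet1 KO replicate 2 this level was 4.87, while the other 5 arrays gave 4.21 to 4.37. That array also had the lowest weight when arrays were weighted by their fit, 0.259 against 0.873 to 1.88. All 4 Tet1 probe sets were lower in Tet1 KO without overlap between groups, by -1.68 to -0.93. Their limma p-values ran from 0.00171 to 0.0103 unadjusted, and each was 0.686 adjusted. The test over all probe sets thus did not call the knocked-out gene itself. One array of each group, the third replicate, read low at Xist, at 3.82 in Tet1 KO and 4.58 in WT, against at least 11.8 on the other arrays. All 6 LSK marker genes measured were above the control level, and Kit averaged 9.84 ± 0.15 in Tet1 KO and 9.94 ± 0.10 in WT (SD, n = 3 each). Cd34 was about as even, at 10.76 in Tet1 KO and 10.82 in WT. Flt3, Procr and Slamf1 had SDs of 1.05, 0.75 and 1.19 in Tet1 KO, against 0.32, 0.12 and 0.17 in WT. Slamf1 differed by 0.78 (SE 0.55) and Cd48 by -0.41 (SE 0.26). The summed LSK level ran from 12.05 to 12.80 in Tet1 KO and 12.37 to 12.47 in WT. Ly6a, which encodes Sca-1, was not analysed here. Among lineage markers, Cd3e of T cells was below the control level, with means of 3.91 in Tet1 KO and 3.89 in WT. So was Ms4a1 of B cells, at 3.37 in Tet1 KO and 3.41 in WT. Others were above it. Of B cell markers, Cd79b averaged 7.31 in Tet1 KO and 7.73 in WT, and Cd79a 5.80 in Tet1 KO and 5.58 in WT. Of T and NK cell markers, Nkg7 averaged 8.81 in Tet1 KO and 8.98 in WT. Cd8a averaged 5.82 in Tet1 KO and 5.28 in WT, with a limma p of 0.0375 unadjusted and 0.686 adjusted. Lyz2 of myeloid cells averaged 10.28 in Tet1 KO and 10.26 in WT. Summed over each marker list, the B cell level ran from 7.67 to 8.42 in Tet1 KO and 8.20 to 8.42 in WT, with 3 of 5 genes above the control level. The T and NK cell level ran from 8.96 to 9.80 in Tet1 KO and 8.87 to 9.73 in WT (3 of 8), and that of monocytes, macrophages and dendritic cells from 10.51 to 10.83 in Tet1 KO and 10.46 to 10.59 in WT (5 of 8). For granulocytes it ran from 10.07 to 10.68 in Tet1 KO and 9.49 to 10.85 in WT (5 of 5), and for erythroid cells from 6.55 to 7.94 in Tet1 KO and 7.43 to 7.64 in WT (2 of 4). For endothelial and stromal cells it ran from 8.68 to 9.10 in Tet1 KO and 8.78 to 9.15 in WT (5 of 8). Their part in the results was not tested. In sorted cells measured in bulk, fewer cells that express a gene and less RNA per cell cannot be told apart.

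No member passed the test over all probe sets. In limma with Benjamini-Hochberg adjustment, 0 of the 17 member probe sets had an adjusted p under 0.05, and the share called among all 45037 was likewise 0.00%. The lowest adjusted p among members was 0.686. Over all probe sets, 3065 had an unadjusted p under 0.05, and 1 was called, not a member, when limma's variance prior followed intensity. At an unadjusted p under 0.05 there were 2 member probe sets, both lower in Tet1 KO, those of Psme1 and Psmb10, while 3.58% of all probe sets were lower and 3.23% higher at this threshold. The same 2 were the only member probe sets on which the groups did not overlap, against 6.29% lower and 9.96% higher of all probe sets. At their levels this was more common on the lower side. It held for 1213 of the 10051 probe sets with a mean of 7 to 10 and 259 of the 1549 above 10. Of the 17, 10 were higher and 7 lower in Tet1 KO, or 58.8% higher against 57.1% of all probe sets, with a median difference of 0.10 against 0.06. The 3 member probe sets under the bacterial control level were all higher, at 0.13 for one of Psmb8 and 0.32 and 0.36 for a pair of Tap1, as were 78.0% of all probe sets at or below that level. Above the level, 7 of 14 were higher, with a median of 0.00.

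**Figure D1:**
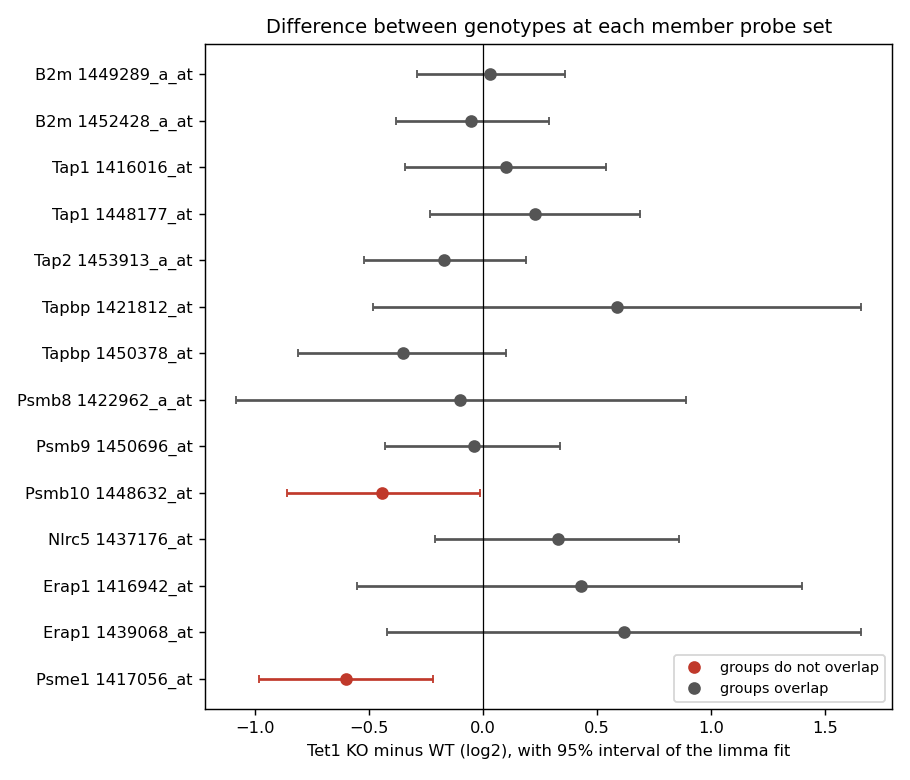
Difference between genotypes, Tet1 KO minus WT on the log2 scale, at the 14 member probe sets above the bacterial control level. Points are limma estimates and bars their 95% intervals; the intervals of Psme1 and Psmb10 lie below 0, and those of the other 12 include 0.

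Proteasome members were lower or near even in Tet1 KO. Psme1, which encodes the alpha subunit of the PA28 activator, read 10.41, 10.54 and 10.26 on Tet1 KO replicates 1, 2 and 3, against 10.93, 11.17 and 10.91 on the WT arrays. All 3 Tet1 KO arrays lay below all WT arrays, with a gap of 0.373 between the groups. Its means were 10.40 ± 0.14 in Tet1 KO and 11.00 ± 0.14 in WT (SD, n = 3 each), a difference of -0.60 (SE 0.16, 95% interval -0.98 to -0.22), which is 0.659 times the WT level. The limma p was 0.00747 unadjusted and 0.686 adjusted. Bright probe sets were lower in Tet1 KO more often than dim ones: over the 1549 with a mean above 10 the median difference was -0.08, and 4.33% were lower at an unadjusted p under 0.05. Cyclic loess normalization, which is meant to remove such a trend with level, left the Psme1 difference at -0.49, with an unadjusted p of 0.0250 in limma. Whether the trend was gone after it was not tested.

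Psmb10, which encodes a catalytic subunit of the immunoproteasome, read 9.43, 9.68 and 9.38 in Tet1 KO, against 10.10, 10.01 and 9.69 in WT. The groups did not overlap, but the gap between them was 0.0044, since the highest Tet1 KO array almost met the lowest WT array. Means were 9.50 ± 0.16 in Tet1 KO and 9.93 ± 0.22 in WT (SD, n = 3 each), a difference of -0.44 (SE 0.18, 95% interval -0.86 to -0.01) with a limma p of 0.0466 unadjusted and 0.686 adjusted. The unadjusted p was 0.159 with cyclic loess and 0.0844 with quantile normalization. The unadjusted p was also above 0.05 when Tet1 KO replicate 1 or 3 or WT replicate 1 or 2 was left out, at 0.108, 0.118, 0.149 and 0.129.

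Psmb9, another catalytic subunit gene, whose promoter window overlaps that of Tap1, read 10.33, 10.73 and 10.62 in Tet1 KO, against 10.55, 10.64 and 10.61 in WT. The WT values lay inside the range of the Tet1 KO values, and the difference was -0.04 (SE 0.16, 95% interval -0.43 to 0.34). Psmb8, the gene of the subunit that stands in for Psmb5, was the proteasome member with the widest spread. Its bright probe set read 11.83, 10.66 and 10.24 in Tet1 KO, against 11.30, 10.96 and 10.76 in WT. The highest and the lowest of the 6 values were both from Tet1 KO arrays, so that the SD was 0.82 in Tet1 KO and 0.28 in WT. The difference of -0.10 (SE 0.41) was 0.24 when Tet1 KO replicate 3 was left out, but -0.56 when replicate 1 was. Its other probe set read 3.20 ± 0.36 in Tet1 KO and 3.07 ± 0.16 in WT (SD, n = 3 each), below the bacterial control level.

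**Figure D2:**
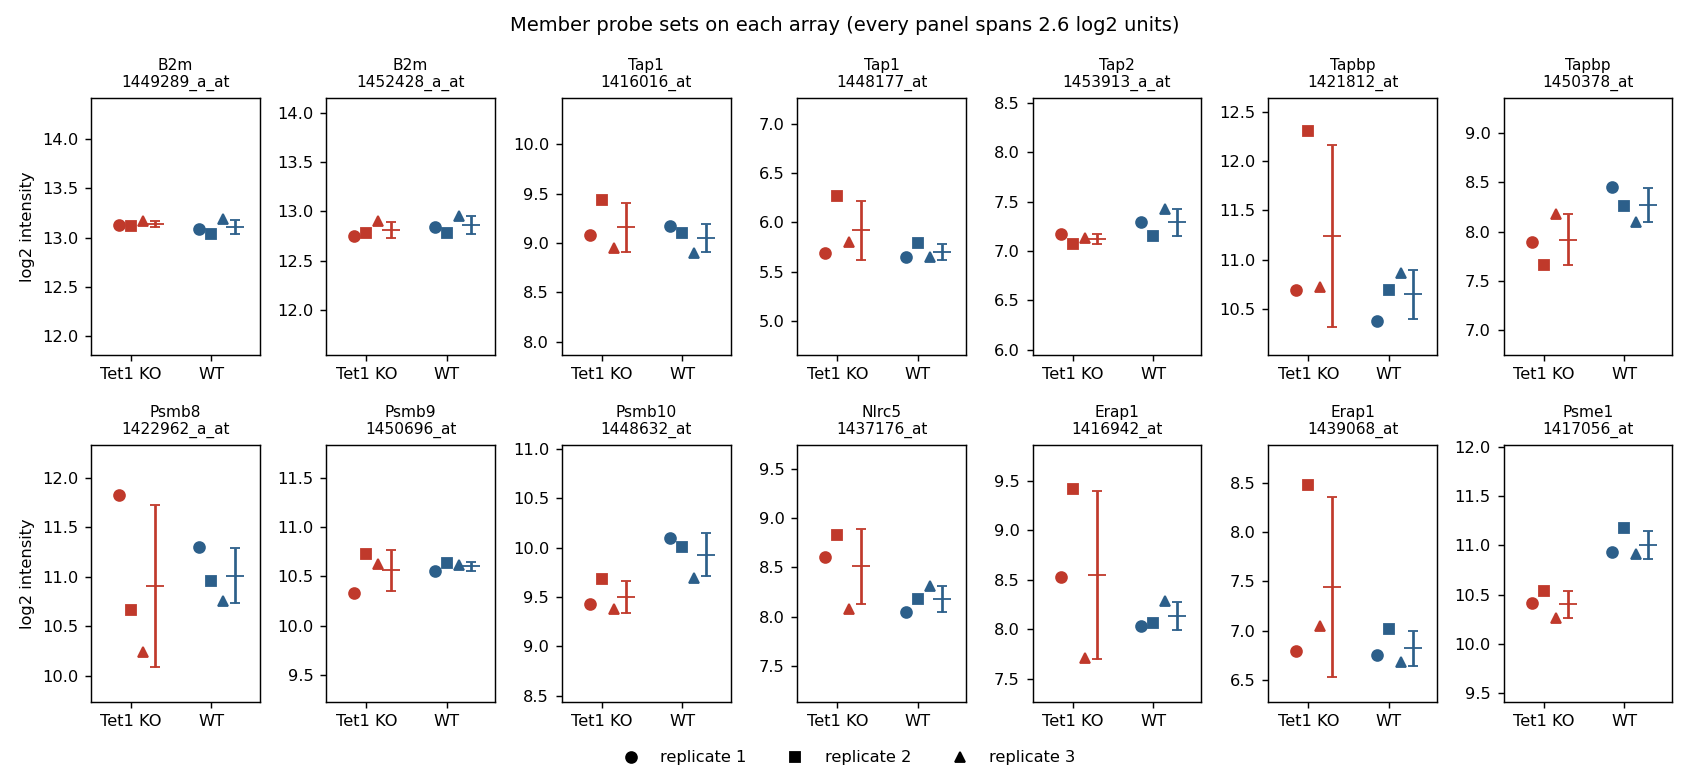
Log2 intensity on each of the 6 arrays for the 14 member probe sets above the bacterial control level, with replicates as symbols and the mean ± SD of 3 arrays beside them. Tet1 KO replicate 2 stands apart at Tapbp 1421812_at (12.30) and at Erap1 1439068_at (8.48), Psme1 separates the groups, and B2m is nearly level.

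The transporter genes overlapped between genotypes at every probe set. Tap1 read 9.08, 9.44 and 8.95 in Tet1 KO, against 9.17, 9.10 and 8.90 in WT at its brightest probe set. The groups overlapped, and the difference of 0.10 (SE 0.18, 95% interval -0.34 to 0.54) became -0.04 without Tet1 KO replicate 2. A second Tap1 probe set read 5.69, 6.27 and 5.80 in Tet1 KO, against 5.65, 5.79 and 5.65 in WT, a difference of 0.23 (SE 0.19) that was 0.05 without Tet1 KO replicate 2. Tet1 KO replicate 2 was the highest of the 6 arrays at both of these, and also at the 2 Tap1 probe sets under the control level, where it read 3.38 and 2.75. Tap2, the partner of Tap1, read 7.17, 7.07 and 7.13 in Tet1 KO, against 7.29, 7.15 and 7.43 in WT. Its difference was -0.17 (SE 0.15, 95% interval -0.52 to 0.19), or -0.10 without WT replicate 3, with groups that overlapped. The range of Tap2 over all 6 arrays, 0.366, was narrower than that of 93.5% of the 28780 probe sets above the control level.

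Neighbours of this block on chromosome 17 are MHC class II genes. From one end to the other, the brightest probe sets gave -0.04 for Psmb9, 0.10 for Tap1, -0.10 for Psmb8 and -0.17 for Tap2. Next to Psmb9, H2-DMb1 was not analysed here, and beyond it H2-DMb2 differed by 0.68 (SE 0.42) and H2-DMa by -0.46 (SE 0.24), both chaperone genes of class II. On the Tap2 side, H2-Ob differed by -1.23 (SE 0.83), with an SD of 1.81 in Tet1 KO, and the class II chain genes H2-Ab1 and H2-Aa by -0.80 (SE 0.20) and -1.28 (SE 0.17). None of these passed, with adjusted limma p-values of 0.686 or more, and the contrast between the member block and its neighbours was not tested.

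The 2 probe sets of Tapbp went in opposite directions. The brighter one, 1421812_at, read 10.69, 12.30 and 10.72 in Tet1 KO, against 10.38, 10.69 and 10.87 in WT. Only Tet1 KO replicate 2 lay outside the WT range, and the difference of 0.59 (SE 0.45) was 0.06 without it. The other one, 1450378_at, which the annotation traces to the same sequence record, read 7.90, 7.66 and 8.18 in Tet1 KO, against 8.45, 8.26 and 8.10 in WT. There Tet1 KO replicate 2 was the lowest of the 6 arrays, and the difference was -0.35 (SE 0.19, 95% interval -0.81 to 0.10), or -0.23 without it. At Tapbp, the same array was thus the highest by one probe set and the lowest by the other, and no single direction for the gene can be read.

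Erap1, the peptide-trimming aminopeptidase, was high on the same array at both of its probe sets. At 1416942_at it read 8.53, 9.42 and 7.71 in Tet1 KO, against 8.03, 8.06 and 8.29 in WT. At 1439068_at it read 6.79, 8.48 and 7.05 in Tet1 KO, against 6.75, 7.02 and 6.68 in WT. Tet1 KO replicate 2 stood 1.29 and 1.66 above the WT mean, while the remaining Tet1 KO arrays ran from -0.41 to 0.40 around it. The differences of 0.43 (SE 0.41) and 0.62 (SE 0.43) became -0.01 and 0.10 without that array.

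B2m, the light chain, was the steadiest member. It read 13.13, 13.12 and 13.17 in Tet1 KO, against 13.09, 13.04 and 13.19 in WT, and its other probe set 12.75, 12.78 and 12.90 in Tet1 KO, against 12.84, 12.78 and 12.95 in WT. The groups overlapped at both. Differences were 0.03 (95% interval -0.29 to 0.36) and -0.05 (95% interval -0.38 to 0.29). The range over 6 arrays was 0.143 and 0.198, narrower than in 99.7% and 99.0% of the probe sets above the control level. Bright probe sets had narrower ranges in general: the median was 0.552 over the 1549 with a mean above 10, against 0.897 above the control level. Both probe sets lie near the top of the scale, whose highest value was 14.6, and whether their signal was saturated was not tested.

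Nlrc5, the class I transactivator, read 8.61, 8.83 and 8.08 in Tet1 KO, against 8.05, 8.18 and 8.31 in WT. On 2 Tet1 KO arrays it was above all WT arrays, and on the third within the WT range. Means were 8.51 ± 0.38 in Tet1 KO and 8.18 ± 0.13 in WT (SD, n = 3 each), a difference of 0.33 (SE 0.22, 95% interval -0.21 to 0.86) with an adjusted limma p of 0.689. Leaving out Tet1 KO replicate 2 gave 0.16, and leaving out replicate 3 gave 0.54.

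**Figure D3:**
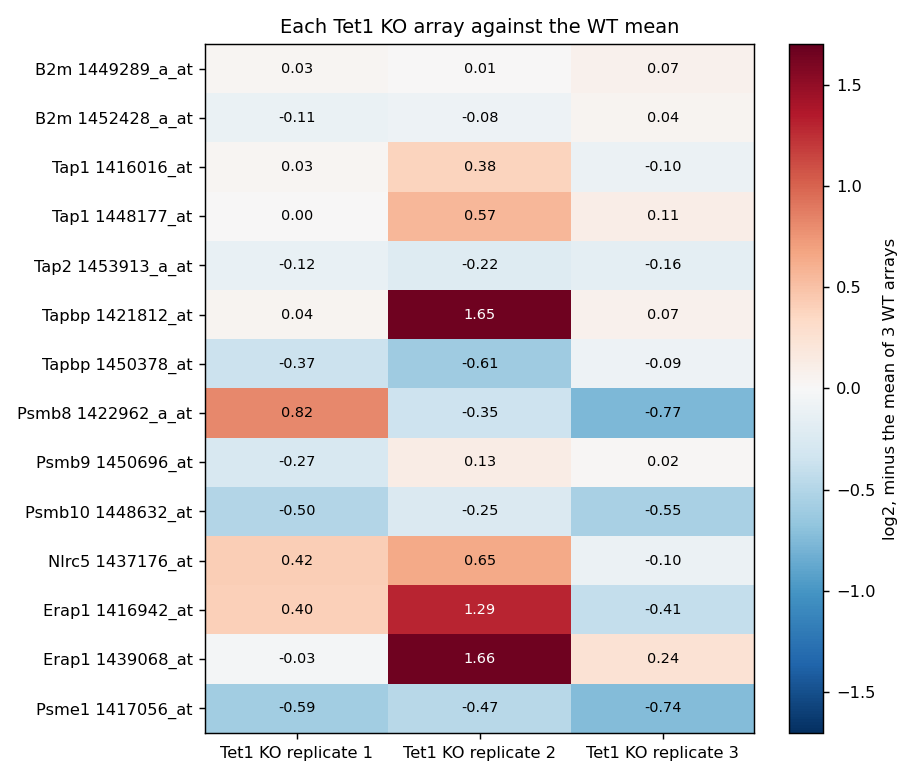
Each Tet1 KO array minus the mean of the 3 WT arrays (log2) at the 14 member probe sets above the bacterial control level, with red for higher and blue for lower. Psme1 and Psmb10 are lower in all 3 columns, whereas the values above 1 for Tapbp and Erap1 stand in the column of replicate 2 alone.

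The Tet1 KO arrays were less alike than the WT arrays at these genes, as at most genes. At 12 of the 17 member probe sets the SD was larger in Tet1 KO than in WT, or 70.6%, against 71.9% of all probe sets. The median SD over the members was 0.305 in Tet1 KO and 0.142 in WT, and over all probe sets 0.298 in Tet1 KO and 0.174 in WT. Tet1 KO replicate 2 was the array farthest from the median of the 6 at 9 of the 17, or 52.9%, against 44.1% of all probe sets. On that array the interquartile range of the deviations from the WT mean was 0.987 over the members and 0.774 over all probe sets. On replicates 1 and 3 it was 0.266 and 0.225 over the members, against 0.398 and 0.447 over all.

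Constitutive proteasome genes were mixed in sign. All 3 catalytic subunit genes that the immunoproteasome subunits replace were lower in Tet1 KO. Their median difference was -0.46, against 0.05 over the brightest probe sets of all 18193 genes. An unadjusted p under 0.05 on the lower side was found for 2 of the 3, where 3.70% of all genes had one on the lower side and 3.02% on the higher side. Level matters to this reading. Among the 10051 probe sets with a mean of 7 to 10, where Psmb5 lay, the median was -0.13. Of these, 33.4% were higher in Tet1 KO and 5.99% were lower at an unadjusted p under 0.05. Psmb6 and Psmb7 averaged just above 10, and over the 1549 probe sets above 10 these values were -0.08, 32.7% and 4.33%. Psmb5 read 8.53, 8.79 and 8.42 in Tet1 KO, against 9.06, 9.15 and 8.93 in WT, a difference of -0.46 (SE 0.16). Psmb6 read 10.04, 9.91 and 9.80 in Tet1 KO, against 10.31, 10.28 and 10.26 in WT, a difference of -0.37 (SE 0.14). In both, every Tet1 KO array was below every WT array, while Psmb7, at -0.61 (SE 0.44), overlapped. Such a separation on the lower side was found for 1213 of the 10051 probe sets with a mean of 7 to 10. Above 10 it was found for 259 of the 1549. Psmb7 was at -0.18 without WT replicate 2, which read 11.26, and at -0.33 without Tet1 KO replicate 3. Of 11 other genes of the proteasome core, 7 stood lower and 4 higher. Their median difference was -0.05, and 1 had an unadjusted p under 0.05. That gene was Psmb1, a structural beta subunit, at 8.99 ± 0.21 in Tet1 KO and 9.49 ± 0.03 in WT (SD, n = 3 each), a difference of -0.50 (SE 0.16), which shrank to -0.06 when its probe sets were averaged. The next by p, Psma4 and Psmb2, were each at -0.26 (SE 0.18), but Psma4 was at -0.12 without Tet1 KO replicate 2, and Psmb2 at -0.14 without replicate 1 and -0.40 without replicate 2. The 4 that stood higher were Psmb4 at 0.59, Psma1 at 0.43, Psma7 at 0.14 and Psma6 at 0.04. Of these, Psmb4 and Psma7 were high on Tet1 KO replicate 2, at 12.64 and 12.32, and Psma1 on replicate 1, at 11.46. No gene of either list passed adjustment, with 0.686 the lowest adjusted limma p.

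**Figure D4:**
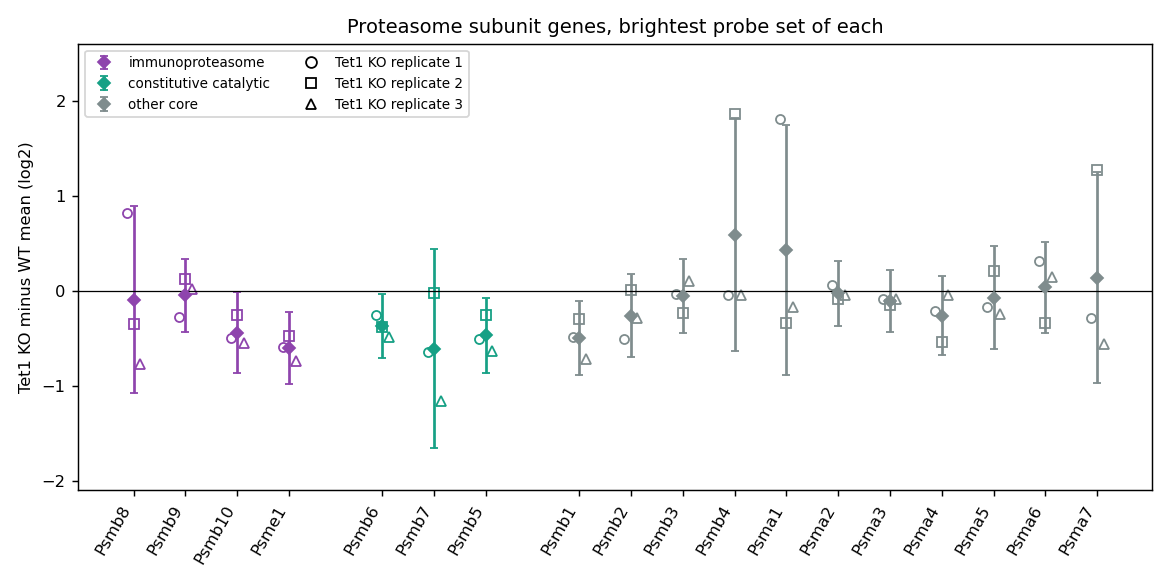
Tet1 KO minus WT (log2) at the brightest probe set of 18 proteasome genes: filled diamonds with 95% intervals of the limma fit, and open symbols for each Tet1 KO array minus the WT mean. The intervals of Psmb10, Psme1, Psmb5, Psmb6 and Psmb1 lie below 0.

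Class I heavy chain genes showed no common direction. Of 9 measured, 6 were higher and 3 lower, or 66.7% higher against 56.5% of all genes, with a median of 0.07 against 0.05. Below the bacterial control level were 3, all of them among the 6 higher. At or below that level, 78.0% of all probe sets were higher. Mr1, which presents vitamin metabolites to T cells, read 7.42, 6.94 and 6.43 in Tet1 KO, against 6.42, 6.29 and 6.03 in WT, a difference of 0.68 (SE 0.27, unadjusted limma p of 0.0426). It was higher on all 3 Tet1 KO arrays, the lowest of which lay just above the highest WT array. Of the 9, 2 were separated on the higher side and 1 on the lower side, against 1868 and 1252 of all 18193 genes. Mr1 was the only 1 of the 9 with an unadjusted p under 0.05, a threshold that 3.02% of all genes passed on the higher side. Its adjusted limma p was 0.686, and no heavy chain gene had a lower one. The Mr1 difference was 0.41 (SE 0.27) when its probe sets were averaged, and 0.44 without Tet1 KO replicate 1, which read highest. The classical heavy chain gene H2-D1 read 10.89 ± 0.11 in Tet1 KO and 11.13 ± 0.09 in WT, a difference of -0.24 (SE 0.14), which was 0.01 when its probe sets were averaged. H2-K1 differed by -0.15 (SE 0.17). H2-Q2, at 0.38 (SE 0.16), was below the control level in both groups. Probe sets of heavy chains can share sequence between these near-identical genes, so each value may hold signal of another.

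Other genes of peptide supply and loading divided much as probe sets with a mean above 7 did, the range that held most of them. Of 17 measured, all above the control level, 11 stood lower in Tet1 KO and 6 higher. The share higher was 35.3%, against 56.5% of all genes. Among probe sets with a mean of 7 to 10 it was 33.4%, and above 10 it was 32.7%. Their median difference was -0.11, against -0.13 for probe sets with a mean of 7 to 10, -0.08 above 10 and 0.05 for all genes. In limma, 0 had an unadjusted p under 0.05, nor an adjusted one. The smallest p-values were those of Lap3, a cytosolic aminopeptidase, at -0.58 (SE 0.31), Psme4, an alternative proteasome activator, at 0.32 (SE 0.18), and Ide, a peptide-degrading protease, at -0.22 (SE 0.15). Lap3 was at -0.22 without Tet1 KO replicate 2, which read 6.68, and Ide at -0.11 when its probe sets were averaged.

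Among 26 regulators of class I transcription, 17 stood lower in Tet1 KO and 9 higher. The share higher was 34.6%, against 56.5% of all genes, and the median difference -0.12, against 0.05. Irf8, Stat2, Relb, Ciita, Rfxank, Tyk2 and Socs1 averaged below 7, and Nfya and Ifnar2 above 10. The list was not split by level. Over all probe sets with a mean of 7 to 10, where the rest of the list lay, 33.4% were higher, with a median of -0.13. An unadjusted p under 0.05 was found for 2, both lower, or 7.69%, against 5.99% lower of those probe sets and 3.70% lower of all genes. Nfyb, a subunit of the factor that binds CCAAT boxes, read 8.42, 8.23 and 8.61 in Tet1 KO, against 8.91, 8.76 and 9.08 in WT, a difference of -0.50 (SE 0.17). Jak1, a kinase of interferon receptors, differed by -0.42 (SE 0.17), and by -0.07 when its probe sets were averaged. At Nfyb and Jak1 the groups did not overlap. Of the 26, 5 were separated on the lower side, these 2 included, and 0 on the higher side. Such a separation on the lower side was found for 1213 of the 10051 probe sets with a mean of 7 to 10. Over all genes it was found for 1252 of 18193. Rfx5, a partner of Nlrc5 at class I promoters, differed by -0.68 (SE 0.30), and by -0.44 without Tet1 KO replicate 2 or without WT replicate 3. Irf1, an activator of class I and immunoproteasome genes, read 8.63 ± 0.03 in Tet1 KO and 8.88 ± 0.05 in WT (SD, n = 3 each), a difference of -0.25 (SE 0.13). None passed adjustment, at an adjusted limma p of 0.686 for each.

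Of 18 interferon-inducible genes, 10 were higher and 8 lower, or 55.6% higher against 56.5% of all genes, with a median of 0.08 against 0.05. An unadjusted p under 0.05 was found for 1, higher, or 5.56%, against 3.02% higher of all genes. Of the 18, 17 were above the bacterial control level. Over all probe sets above that level 45.3% were higher, with a median of -0.04, and 2.37% were higher at an unadjusted p under 0.05. Usp18, a protease that removes ISG15 from proteins, read 5.96, 6.43 and 5.91 in Tet1 KO, against 5.27, 5.39 and 5.01 in WT. All Tet1 KO arrays were above all WT arrays, with a difference of 0.88 (SE 0.20), an unadjusted limma p of 0.0038 and an adjusted one of 0.686. It was the only 1 of the 18 so separated, and 1731 of the 28780 probe sets above the control level were separated on the higher side. Gbp2, a guanylate-binding protein gene, differed by 0.30 (SE 0.20), or 0.16 without WT replicate 2, and Gbp3, of the same family, by -0.45 (SE 0.33), which was -0.09 without Tet1 KO replicate 2.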

How the data were processed

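Total RNA of 6 LSK samples was measured on 1 Affymetrix array each, with cDNA made from 125 ng by a whole-transcript kit, per the labels' protocols. The authors deposited 1 log2 intensity per array for 45101 probe sets, a scale taken from the span of 1.50 to 14.6. How they corrected background, normalized and summarized probes was not given in the sources used here. Array medians differed by 0.0694, under the limit of 0.3 set for renormalizing, so values were used as deposited. Groups and replicate numbers came from the sample titles.

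A platform annotation gave 1 gene symbol to 34958 probe sets, several to 932 and none to 9211. The 64 control probe sets were left out, and Tet1 KO was compared with WT over the other 45037 in limma 3.58.1 (R 4.3.3; lmFit and eBayes, genotype as the only term, two-sided), with Benjamini-Hochberg adjustment at 0.05 and no filter on dim probe sets. An exact permutation test of 3 against 3 cannot go below p = 0.1. On each array the brightest of 27 probe sets for bacterial RNA was taken, and its mean over the 6 arrays is the bacterial control level. For lists, the probe set with the highest mean stood for its gene.

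All member probe sets are accounted for. Of each list, genes with an unadjusted p under 0.05 are named, or the 3 with the smallest p where fewer than 3 had one. H2-K1, Irf1, Psmb4, Psma7, Psma1, Psma6 and the class II neighbours were named after their values were seen. The cell marker genes are named as examples, outside this rule. The members and lists were chosen with earlier results of these data known. Promoter windows came from RefSeq, and genes with no matching entry were not analysed here. The fit was tested on simulated data. Figures were drawn with matplotlib 3.10.9.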

Additional observations from a re-analysis of the deposited data

How the results depend on the processing

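The differences of the 14 member probe sets above the bacterial control level were recomputed under 15 alternatives, and 188 of 202 values kept their sign and stayed short of the adjusted threshold, while 14 changed sign and 0 passed it. Psme1 stayed lower in all 15, between -0.67 and -0.49, with an unadjusted limma p of at most 0.0344. Psmb10 also stayed lower, between -0.56 and -0.31. The count of probe sets called was 0 except with an intensity trend in eBayes, where 1 was called, a probe set with no gene listed, at an adjusted limma p of 0.0476. Member probe sets at an unadjusted p under 0.05 numbered 2, but 1 with quantile normalization, cyclic loess, the filter at the control level or the replicate block, where only Psme1 was left, and from 1 to 4 when an array was left out. Without Tet1 KO replicate 3 the 4 were Psme1, Erap1, Nlrc5 and Tapbp 1450378_at. Member probe sets higher in Tet1 KO numbered 10, or 5 of the 10 genes with the brightest probe set or with the mean of the probe sets. The median of 0.10 was 0.00 with the filter and with the brightest probe sets, and ran from 0.03 to 0.23 over the left-out arrays.

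Changes of sign were as follows, and the cause was not tested. With cyclic loess, B2m 1452428_a_at was at 0.02, Psmb8 at 0.01 and Psmb9 at 0.07. With quantile normalization B2m 1452428_a_at was at 0.04. With the mean of the probe sets B2m was at -0.01, Psmb8 at 0.02 and H2-D1 at 0.01, and with array weights Psmb8 was at 0.05. Leaving out an array gave a range of -0.56 to 0.24 for Psmb8, -0.13 to 0.07 for Psmb9, -0.04 to 0.21 for Tap1 1416016_at, -0.01 to 0.85 for Erap1 1416942_at and -0.09 to 0.00 for B2m 1452428_a_at. Of the 18 named genes outside the members, the other 268 of 269 values kept their sign. The Xist-low arrays as a covariate, chosen after seeing the data, left both Psme1 and Psmb10 at an unadjusted limma p under 0.05.

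The replicate numbers are shared between groups, but deviations from the group means of same-numbered arrays correlated at 0.0127, -0.00632 and 0.000539, so the numbers were not taken as pairs. A correlation over all probe sets can miss matching that moves few of them, so whether samples were matched stays unknown. The Xist-low array was replicate 3 in both groups. With the replicate block, the SE went from 0.44 to 0.21 at Psmb7 and from 0.41 to 0.27 at Psmb8, but from 0.16 to 0.17 at Psme1.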
